A study of Mus musculus with 6 samples.

Results

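Transcripts of 7 genes that write, read or erase DNA methylation were followed in striatal astrocyte preparations of mice, namely *Dnmt1*, *Uhrf1*, *Dnmt3a*, *Dnmt3b*, *Tet1*, *Tet2* and *Tet3*. They were chosen by name, as the core enzymes and the hemimethylation reader of this pathway, out of 32285 genes in the deposited count table, and all 7 were found in it. The single-cell RNA-seq libraries came from wild type male C57BL/6 mice, with 3 libraries prepared on postnatal day 3 (P3) and 3 from animals of 3 months (3m). Striatal tissue without the subventricular zone was dissociated and cells were purified with magnetic beads against ACSA2, an astrocyte surface antigen, and each preparation pooled several animals. No allele, transgene or treatment was used in either group. Cells were taken as annotated by the study, which gave 9992 astroglial cells (8874 at P3, 1118 at 3m) among 14373 cells in 24 clusters.

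DNA methylation in mammals is placed mainly on cytosines of CpG dinucleotides. DNMT3A and DNMT3B add it to unmethylated sites (de novo methylation), and after DNA replication UHRF1 reads the hemimethylated CpGs and brings in DNMT1, which copies the mark to the new strand (maintenance methylation). TET enzymes oxidise methylcytosine, which opens a route to its removal, either by dilution over cell divisions or by excision of the oxidised base with thymine DNA glycosylase. During brain development, astrocyte precursors divide around birth and most astrocytes of the adult striatum no longer do. Maintenance methylation is tied to S phase, when DNA is copied, and *Dnmt1* and *Uhrf1* are known to be transcribed most in dividing cells.

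In the GRCm38 annotation, *Dnmt1* lies at chr9:20907209-20959888 on the minus strand and *Uhrf1* at chr17:56303321-56323486 on the plus strand. *Dnmt3a* spans chr12:3806007-3914443 and *Dnmt3b* chr2:153649450-153687730, both on the plus strand. The 3 *Tet* genes are on minus strands, *Tet1* at chr10:62804570-62908996, *Tet2* at chr3:133463679-133545139 and *Tet3* at chr6:83362373-83459084. All 7 genes matched RefSeq promoter windows of GRCm38.p6, 12 windows in all, each from 250 bases before to 50 bases after an annotated start. Windows were searched on both strands for E2F-type letters (TTCCCGC or one of its relatives, which are TTGGCGC in one form, TTCGCGC in another and TTGCCGC in a further one), for CCAAT and for TTTGAA. An E2F-type match was in 3 of the 12 windows, against 9.57% of 32817 windows of all genes. CCAAT was in 5 of the 12 (37.4% of all windows) and TTTGAA in 2 (17.9%). The 3 windows with an E2F-type match belonged to *Dnmt1* and *Uhrf1*, the genes of maintenance methylation. A match describes the letters only and was not tested as a binding site.

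The windows with E2F-type letters are shown because both genes followed the cell cycle in the data, and that of *Tet2* because it moved the other way with age. They read 5′ to 3′ on the strand of the gene, in lower case, with every match of the 3 kinds of motif in capitals. The *Dnmt1* window is chr9:20952574-20952873 (minus strand), and those of *Uhrf1* are chr17:56303087-56303386 and chr17:56304063-56304362 (plus strand). The *Tet2* window is chr3:133544341-133544640 (minus strand).
*Dnmt1*: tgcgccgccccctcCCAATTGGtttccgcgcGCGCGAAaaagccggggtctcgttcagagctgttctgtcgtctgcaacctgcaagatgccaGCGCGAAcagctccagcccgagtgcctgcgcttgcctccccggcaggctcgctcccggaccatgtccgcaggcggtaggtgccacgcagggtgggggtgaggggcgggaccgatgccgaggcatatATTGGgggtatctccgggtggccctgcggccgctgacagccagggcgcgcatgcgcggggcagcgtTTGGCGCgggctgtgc
*Uhrf1*, upstream window: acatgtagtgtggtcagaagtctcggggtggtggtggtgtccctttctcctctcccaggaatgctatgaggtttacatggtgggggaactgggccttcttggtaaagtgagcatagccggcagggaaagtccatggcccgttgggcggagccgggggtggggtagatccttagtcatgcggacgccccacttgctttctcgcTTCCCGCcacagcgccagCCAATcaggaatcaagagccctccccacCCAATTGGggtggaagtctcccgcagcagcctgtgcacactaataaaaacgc
*Uhrf1*, downstream window: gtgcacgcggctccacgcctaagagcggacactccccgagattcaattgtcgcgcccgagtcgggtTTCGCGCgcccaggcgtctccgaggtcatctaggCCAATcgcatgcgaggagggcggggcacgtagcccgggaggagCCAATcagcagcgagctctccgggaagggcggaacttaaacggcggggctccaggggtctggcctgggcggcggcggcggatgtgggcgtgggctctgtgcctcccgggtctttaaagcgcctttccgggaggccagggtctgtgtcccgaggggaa
*Tet2*: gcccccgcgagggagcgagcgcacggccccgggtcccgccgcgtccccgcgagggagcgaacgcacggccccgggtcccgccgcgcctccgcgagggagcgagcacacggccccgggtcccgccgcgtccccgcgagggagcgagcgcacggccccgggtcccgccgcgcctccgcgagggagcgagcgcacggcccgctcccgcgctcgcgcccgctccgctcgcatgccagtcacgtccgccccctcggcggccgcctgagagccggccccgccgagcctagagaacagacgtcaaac
The *Dnmt1* window held 3 E2F-type matches, which began at -219, -158 and +35 from the annotated start, and 3 CCAAT matches. CCAATTGG reads as CCAAT on each strand and was counted as 2 overlapping matches. This window starts 356 bases from the principal start of the GENCODE annotation, and the window at the principal start held none of the motifs. Each *Uhrf1* window held 1 E2F-type match, at -48 in the upstream and at -184 in the downstream window, with 3 and 2 CCAAT matches. The *Tet2* window held none of the motifs. It was 81.3% G or C with 57 CpG dinucleotides, against 33 in the *Dnmt1* window and a median of 7 over the windows of all genes.

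The libraries differed in depth by age. They held 32193875 to 37795021 unique molecular identifiers (UMIs, 1 per captured transcript) at P3 and 5471573 to 10522151 at 3m, and the astroglial sums 22327104 to 30617140 and 1157485 to 1843998. Of 16653 barcode sequences, 37 occurred in more than 1 library. In the astroglial sums, 5 astroglial markers (*Sox9*, *Aldh1l1*, *Slc1a3*, *Aqp4*, *Gja1*) together reached 3295 to 4151 CPM at P3 (counts scaled to the same total in each sum) and 4981 to 5457 at 3m. Oligodendrocyte markers summed to 5.10 to 6.27 CPM at P3, where *Mog* and *Opalin* were at 0, and to 703 to 1853 CPM at 3m, where all 5 were detected. Microglial markers summed to 0.224 to 0.490 CPM at P3 and to 6.79 to 28.7 CPM at 3m. P3 library 3 held 992 cells of the shallow astroglial sub-clusters 4 and 12, against 12 and 14 in P3 libraries 1 and 2. The median share of mitochondrial UMIs per astroglial cell was 1.27 to 2.47% at P3 and 5.97 to 8.18% at 3m. The part of these differences in the values that follow was not tested, beyond the sums without the cells in question given for the genes that changed.

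Astroglia at P3 and 3m were compared first, which asks how the methylation machinery differs between immature and adult astrocytes. UMIs were summed over the astroglial cells of each library, and genes were called with edgeR's quasi-likelihood test where the Benjamini-Hochberg `padj` did not exceed 0.05 and log2(fold change) reached 1 in size. Of the 7 genes, *Dnmt1* and *Uhrf1* fell with age, *Tet2* rose, and the other 4 were not called. Across all 13530 genes tested, 32.1% were called (15.8% higher and 16.3% lower at 3m), so 3 of 7 is not far above the background share. In such sums a smaller share of cells holding a transcript and fewer transcripts per cell cannot be told apart.

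*Dnmt1*, the maintenance methyltransferase, measured 49.3, 40.3 and 43.7 CPM in P3 libraries 1 to 3, and 6.05, 10.3 and 11.5 CPM in 3m libraries 1 to 3. All P3 libraries lay above all 3m libraries. The means were 44.4 ± 4.55 and 9.30 ± 2.88 CPM (SD, n = 3), with a log2(fold change) of -2.02 (SE 0.23, edgeR `padj` = 1.20e-05). *Uhrf1*, the reader of hemimethylated CpGs, measured 29.5, 21.9 and 25.2 CPM at P3. At 3m it was at 0, 0 and 0.679 CPM, a single UMI in the 4473981 astroglial UMIs of the 3 libraries against 1950 UMIs at P3. The pooled P3 level was 113 times that of 3m, with a 95% counting interval of 20.2 to 4447, and edgeR `padj` was 7.38e-07. *Uhrf1* was thus close to undetected in adult astroglia, while *Dnmt1* was still measured in each adult library, on 43 UMIs.

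The de novo enzymes were not called. *Dnmt3a*, the main de novo methyltransferase of the postnatal brain, measured 59.4, 42.5 and 56.2 CPM at P3 and 38.9, 41.8 and 33.3 CPM at 3m. The groups did not overlap, but the lowest P3 library and the highest 3m library were less than 1 CPM apart. Its log2(fold change) was -0.27 (SE 0.18, edgeR `padj` = 0.220). *Dnmt3b*, which acts mainly in the early embryo, was low at both ages, with 81 UMIs at P3 and 4 at 3m. Its levels of 1.34, 0.915 and 0.936 CPM at P3 lay within the 3m range of 1.73, 0 and 1.36 CPM. The estimate of -0.03 had an SE of 0.81 (edgeR `padj` = 0.978), so a change of several fold in either direction was not detectable at this depth.

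Of the erasers, *Tet2* rose. It measured 24.2, 16.5 and 20.5 CPM at P3 and 50.1, 52.6 and 47.5 CPM at 3m. Every 3m library lay far above every P3 library, and the means were 20.4 ± 3.83 and 50.1 ± 2.53 CPM (SD, n = 3; log2(fold change) 1.496, SE 0.18, edgeR `padj` = 1.47e-05). *Tet3*, the family member known for oxidising the paternal genome in the zygote, went the other way, with 34.2, 20.02 and 30.8 CPM at P3 and 12.96, 17.4 and 12.2 CPM at 3m. These groups did not overlap either, and edgeR `padj` was 0.0191, but the log2(fold change) of -0.77 (SE 0.25) stayed under the limit for a call. Without 3m library 2 it was -1.03 and was called. *Tet1* measured 39.0, 23.2 and 31.4 CPM at P3 and 23.3, 20.1 and 21.1 CPM at 3m. Here P3 library 2 fell inside the 3m range, and the log2(fold change) was -0.35 (SE 0.21, edgeR `padj` = 0.199).

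The calls of *Dnmt1*, *Uhrf1* and *Tet2* were as in the full sums when cells with oligodendrocyte transcripts were left out (log2(fold change) of *Dnmt1* -2.00, of *Tet2* 1.497). Within the sub-clusters that the study placed in the telencephalic lineage, *Dnmt1* was at -2.02 and *Tet2* at 1.43. With a stricter filter on cells (over 1000 genes, under 5% mitochondrial UMIs), *Dnmt1* was at -1.36 and *Tet2* at 1.30, both still called, although this left 12 cells in 3m library 1. Without the shallow sub-clusters 4 and 12, *Dnmt1* was at -2.02 and *Tet2* at 1.52. *Uhrf1* was called in each of these sums.

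**Figure D1:**
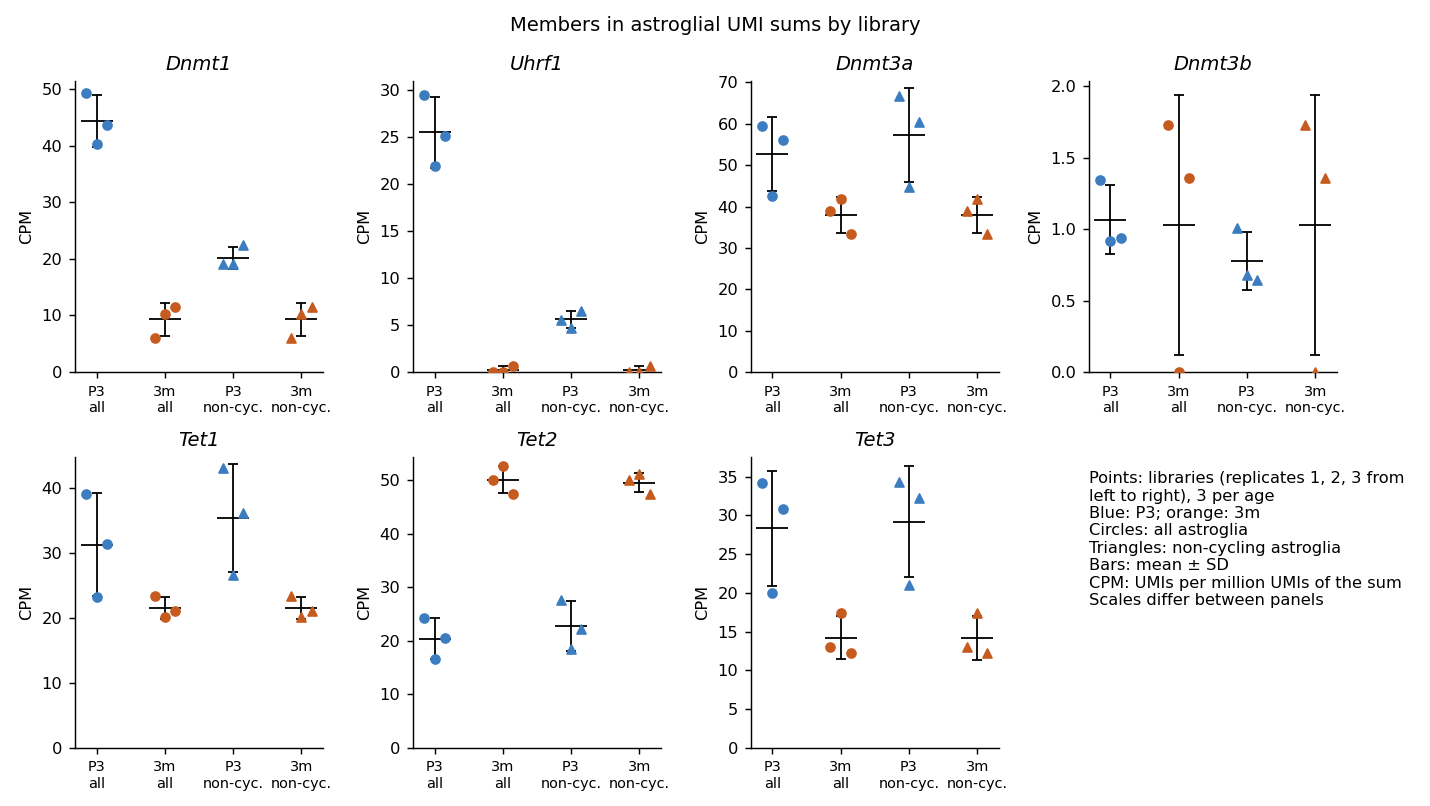
Levels of the 7 genes in CPM (vertical axes, linear, from 0, 1 panel per gene) in the UMI sums of all astroglia (circles) and of non-cycling astroglia (triangles), 1 point per library (3 at P3 in blue, 3 at 3m in orange), with bars at the mean and SD. Over all astroglia the P3 and 3m points overlap for *Dnmt3b* and *Tet1*, and not for *Dnmt1*, *Uhrf1*, *Dnmt3a*, *Tet2* and *Tet3*. How many of all genes show no such overlap was not counted. *Tet2* is the one gene with all 3m points above those of P3, and the P3 points of *Dnmt1* and *Uhrf1* are lower in non-cycling cells.

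The same comparison was then made for astroglia with no sign of cycling, because cycling astroglia were found at P3 only. Cells of the cycling sub-clusters 6 and 8 and any cell with a UMI of *Mki67*, *Top2a* or *Cdk1*, genes of dividing cells, were left out, which kept 6580 cells at P3 and 1117 at 3m. *Uhrf1* and *Tet2* were called, 2 of the 6 genes tested, against 26.4% of 12744 genes (14.3% higher, 12.1% lower). *Dnmt3b* was too low for the test.

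*Dnmt1* measured 19.1, 19.1 and 22.5 CPM in the non-cycling cells of the P3 libraries and 6.05, 10.3 and 11.5 CPM at 3m. The groups still did not overlap, yet its log2(fold change) of -0.86 (SE 0.26, edgeR `padj` = 0.0142) no longer reached the limit of 1. *Uhrf1* measured 5.55, 4.74 and 6.499 CPM at P3 against the same single UMI at 3m. The P3 level was 24.7 times that of 3m (counting interval 4.40 to 980, edgeR `padj` = 5.01e-04). Leaving the cycling cells out thus lowered the P3 mean of *Dnmt1* from 44.4 to 20.2 CPM and that of *Uhrf1* from 25.5 to 5.60 CPM. *Tet2* was little affected, with 27.6, 18.4 and 22.3 CPM at P3 and 50.1, 51.1 and 47.5 CPM at 3m (log2(fold change) 1.35, SE 0.18, edgeR `padj` = 4.33e-05).

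*Tet3* was at -0.78 (SE 0.24, edgeR `padj` = 0.0178) in the non-cycling sums, *Tet1* at -0.49 (`padj` = 0.0752) and *Dnmt3a* at -0.36 (`padj` = 0.138). For each of these 3 genes all P3 libraries lay above all 3m libraries, and none was called. How many of all genes show such a separation was not counted, so it carries no weight here. The sums without marked cycling cells still held S phase transcripts at P3, since 7 of 11 tested genes of a list of 12 (*Mcm2* to *Mcm7*, *Pcna*, *Rrm1*, *Rrm2*, *Slbp*, *Gins2*, *Cdc6*) were lower at 3m. Cells with more than 1 UMI of this list were then left out as well, which kept 794, 1415 and 1762 cells in P3 libraries 1 to 3. At 3m it kept 193, 508 and 330 cells. Cells were not thinned for this rule, and the part of their depth in it was not tested. In these sums *Dnmt1* was at -0.49 (edgeR `padj` = 0.183), *Uhrf1* was too low for the test, and *Tet2* was the only one of the 7 genes called. The call of *Uhrf1* also rested on P3 libraries 1 and 3, since without either of them it did not pass the filter on low counts, and it was not called with the stricter cell filter. *Dnmt1* was called without 3m library 3 (-1.06) and *Tet3* without 3m library 2 (-1.02).

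**Figure D2:**
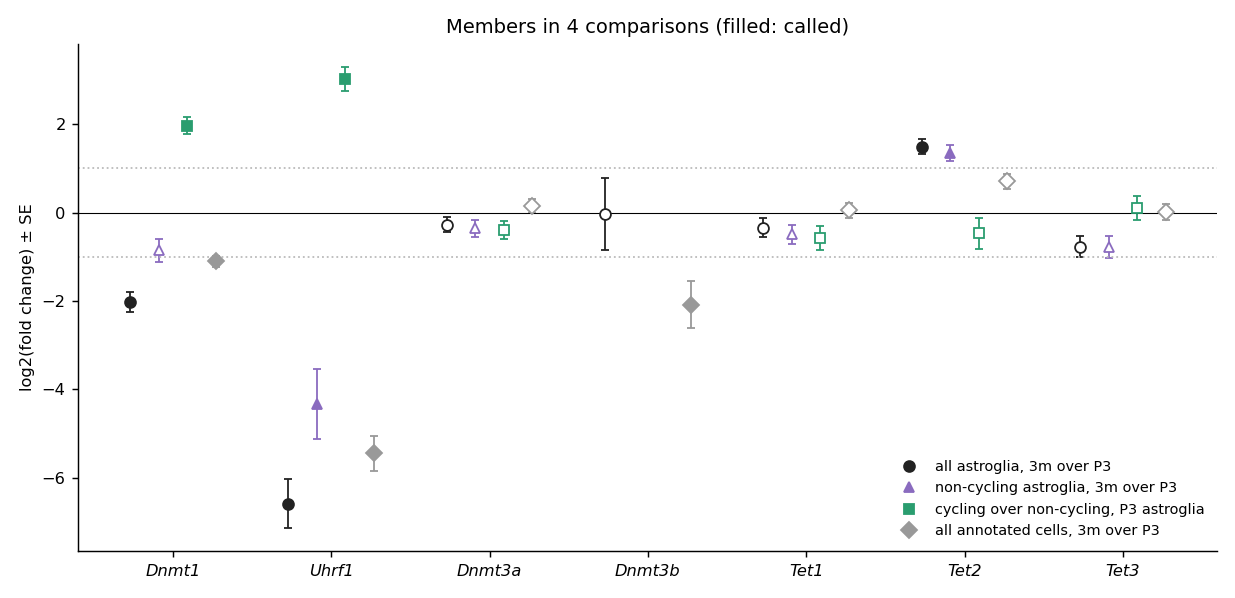
Fitted log2(fold change) of each gene (vertical axis, 0 marks no change, dotted lines the limit of 1 for a call) with its SE as bars, in 4 comparisons told apart by symbol, filled where called. *Dnmt1* and *Uhrf1* are negative with age and positive in cycling cells, *Tet2* is positive with age, and the age values of *Uhrf1* in astroglia rest on 1 UMI at 3m.

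Cycling and non-cycling astroglia of the same P3 library were compared next, to measure the genes against the cell cycle at 1 age. Each cell was thinned to 2000 UMIs, which left out 1113 of 8874 cells as shallower, and was taken as cycling with at least 2 of *Mki67*, *Top2a* and *Cdk1* and as non-cycling with none. There were 164, 206 and 226 cycling cells in libraries 1 to 3 and 1635, 2568 and 2391 non-cycling cells. At 3m no astroglial cell held 2 of the 3 genes and 1 of 1118 cells held any. *Dnmt1* and *Uhrf1* were higher in cycling cells, 2 of 6 genes tested, against 14.5% of 10133 genes (7.31% higher, 7.23% lower).

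*Uhrf1* measured 67.1, 55.8 and 68.6 CPM in the cycling cells of P3 libraries 1 to 3 and 10.7, 7.01 and 7.11 CPM in the non-cycling cells. Its log2(fold change) with the library as a block was 3.03 (SE 0.27, edgeR `padj` = 4.32e-20). *Dnmt1* measured 115.9, 87.4 and 88.5 CPM in cycling and 26.6, 23.2 and 26.3 CPM in non-cycling cells (log2(fold change) 1.97, SE 0.19, edgeR `padj` = 1.22e-17). In every library the cycling cells were higher for both genes. All 11 tested S phase genes and all 8 mitosis genes were also higher, although 3 of those 8 defined the split. Of 8 partners of maintenance methylation, 6 were higher, against 7.31% of all genes. *Pcna* is on this list and on the S phase list, so the counts are not separate.

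The other members were not called between cycling and non-cycling cells. *Dnmt3a* measured 51.8, 33.98 and 39.8 CPM in cycling and 60.9, 45.0 and 62.7 CPM in non-cycling cells, lower in each library, with a log2(fold change) of -0.39 (SE 0.21, edgeR `padj` = 0.151). *Tet2* was at 15.2, 12.1 and 19.9 CPM against 29.7, 19.1 and 21.5 CPM, also lower in each library (log2(fold change) -0.47, SE 0.34, `padj` = 0.312). *Tet1* was lower in each cycling sum too (log2(fold change) -0.58, SE 0.27, `padj` = 0.0955), on 29 UMIs. *Tet3* differed by 0.10 (SE 0.27, `padj` = 0.813), and *Dnmt3b* was counted with 5 and 9 UMIs only. Without thinning, where cycling cells are the deeper ones, *Dnmt3b* was tested and called higher in cycling cells, with a log2(fold change) of 1.22 and an edgeR `padj` of 0.00758.

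Levels over the study's clusters are a description, since the clusters were built from the same counts. GPC_8, a cluster of glial precursor cells, had the highest *Dnmt1* level of the 24 clusters, with 166.8, 120.7 and 142.5 CPM in P3 libraries 1 to 3, and the highest *Uhrf1* level, with 107.5, 67.3 and 82.2 CPM. The other precursor cluster GPC_9 was lower for both genes, with 57.9, 36.4 and 41.1 CPM of *Dnmt1* and 42.7, 38.4 and 45.0 CPM of *Uhrf1*. The ranges of the libraries did not overlap between the 2 clusters for either gene. They also differed in phase: the 12 S phase genes summed to 2178 CPM in GPC_8 and 778 in GPC_9, whereas the 8 mitosis genes summed to 2778 and 3828 CPM. Astroglial sub-cluster 6 held 46.5% of the P3 astroglial *Dnmt1* UMIs and 50% of those of *Uhrf1*, with 7.13% of the cells and 14.3% of all UMIs. For *Dnmt3a*, *Tet1*, *Tet2* and *Tet3* the share of UMIs in sub-cluster 6 was 11.8%, 9.14%, 11.4% and 13.4%.

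After GPC_8, the next levels of *Dnmt1* were those of P3 oligodendrocyte precursors (OPC_18, 93.3 and 46.6 CPM in libraries 2 and 3), microglia (MIC_16, 57.0, 57.7 and 62.1 CPM), pericytes (PER_6, 77.4, 37.7 and 58.3 CPM) and endothelial cells (END_7, 61.3, 45.9 and 52.1 CPM). These 4 overlapped with each other and did not differ beyond their spread. Adult astrocytes were among the lowest, at a mean of 7.198 CPM in AST_3m_14. *Uhrf1* came second in AST_P3_4 (40.3 and 64.5 CPM in libraries 2 and 3), a cluster of shallow cells with a median of 1019 UMIs, and was at 0 in the mature oligodendrocytes of ODC_10 and the neuronal cluster NEU_22.

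*Dnmt3b* had most of its P3 UMIs in 1 endothelial cluster. END_7, a P3 cluster, measured 9.82, 2.86 and 7.18 CPM in libraries 1 to 3 on 134 UMIs, which is 57.5% of all 233 UMIs of the gene at P3. By library the share was 65.1%, 26.1% and 65.4%, while END_7 held 22.0%, 11.2% and 21.0% of all UMIs. END_12, a further P3 endothelial cluster, held 0 UMIs of *Dnmt3b* among 495504, and the adult endothelial cluster END_17 held 1. The higher mean of END_13 (19.8 CPM) rested on 4 UMIs in shallow cells.

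The highest mean of *Dnmt3a*, 113 CPM, came from 31 cells of 1 library in the unidentified cluster LOW_23. In oligodendrocytes the clusters differed, with 62.2 and 131.7 CPM in ODC_10 (3m libraries 1 and 2) and 34.2 and 34.1 CPM in the larger ODC_2 (3m libraries 2 and 3), and all 3m oligodendrocytes together measured 61.5, 45.1 and 40.2 CPM. The P3 astrocytes of AST_P3_11 (80.3, 54.5 and 75.6 CPM) overlapped with ODC_10, and *Dnmt3a* was low in END_17 (16.01, 15.6 and 14.6 CPM). *Tet1* was highest in P3 astrocyte clusters, first AST_P3_11 (48.9, 32.1 and 41.3 CPM) and AST_P3_0 (46.0, 29.8 and 38.5 CPM), whose libraries overlapped. *Tet3* was at 45.6 CPM in the single library of NEU_22, 31.2 CPM in all 3m oligodendrocytes (45.1 in ODC_10, 26.7 in ODC_2), 39.96 CPM in PER_6, 39.6 CPM in END_7 and 13.2 CPM in AST_3m_14 (means over libraries). *Tet2* was highest at 3m, in microglia (69.1 and 49.6 CPM in libraries 1 and 2) and in the adult astrocyte clusters AST_3m_5 (53.2, 55.7 and 45.1 CPM) and AST_3m_14 (46.7 and 57.7 CPM), which overlapped, while oligodendrocytes of the same libraries had a mean of 19.2 CPM. In LOW_20, left unidentified by the study, the means of all 7 genes over the libraries lay between 0 and 5.22 CPM, and single libraries reached at most 13.1 CPM (*Tet1*).

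**Figure D3:**
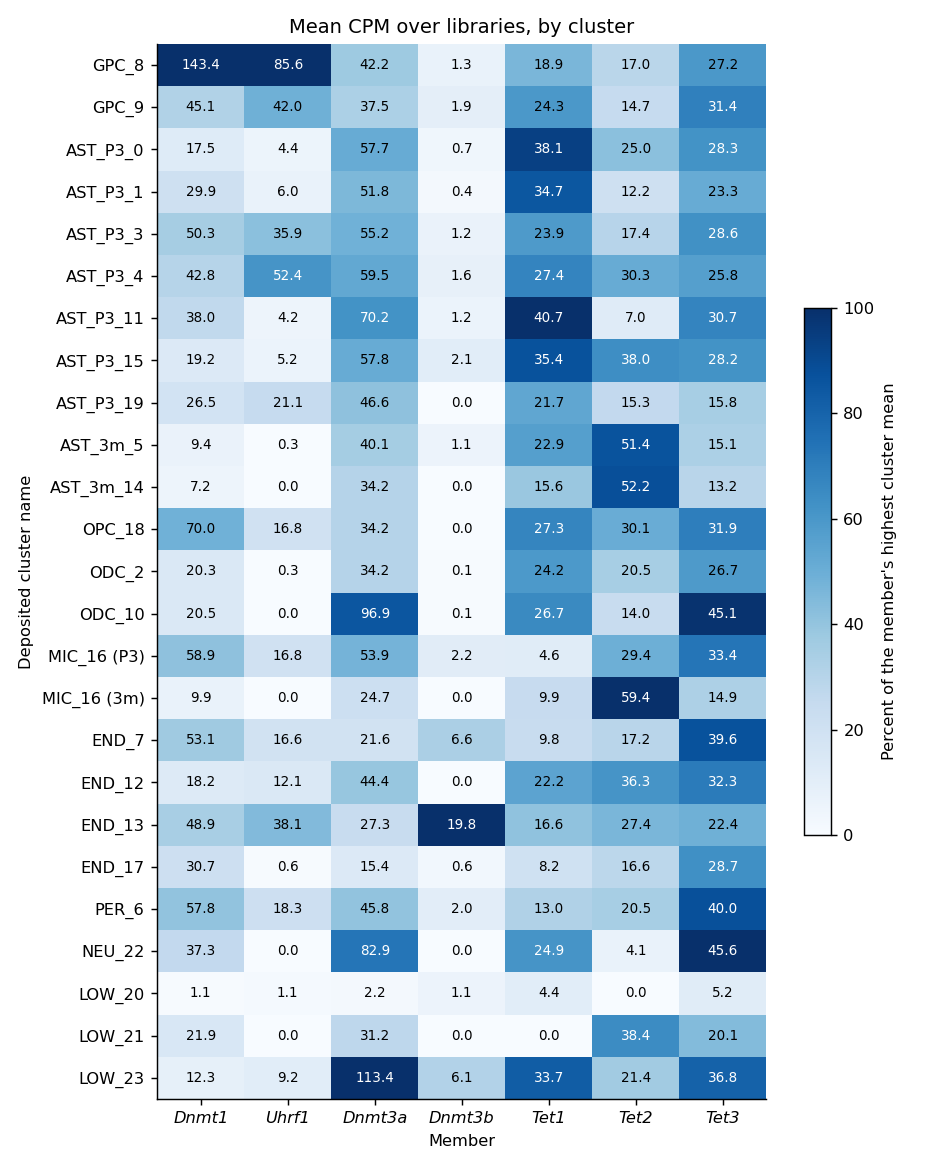
Mean CPM (printed in each cell) of the 7 genes (columns) in the study's clusters (rows), as means over libraries with at least 20 cells, shaded by the percent of each gene's highest cluster. GPC_8 has the highest *Dnmt1* (143 CPM) and *Uhrf1* (85.6 CPM), and the adult astrocyte clusters have *Tet2* above 50 CPM.

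Within P3 astroglia *Tet2* also differed between lineages as the study named them. In telencephalic sub-clusters outside 6 and 8 it measured 27.7, 19.97 and 24.2 CPM in libraries 1 to 3, and in non-telencephalic sub-clusters 13.4, 10.7 and 18.2 CPM. It was higher in the telencephalic cells of each library, and the lowest of these lay above the highest non-telencephalic value. Single sub-clusters did not all follow this. Telencephalic sub-clusters 0, 1 and 11 had means of 24.3 to 42.4 CPM, but 2 and 9 were at 16.8 and 18.7 CPM. Non-telencephalic sub-clusters 3, 5, 10 and 15 had means of 3.90 to 13.3 CPM, but the shallow sub-clusters 4 and 12 were at 34.9 and 75.3 CPM in library 3. At 3m the telencephalic and non-telencephalic means were 51.3 and 51.8 CPM, the second from libraries 2 and 3 only. Of the 3m non-telencephalic sub-clusters, 13 had a mean of 59.8 CPM, and 16 was at 22.6 CPM on 4 UMIs of library 2.

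Pseudotime, a score the study computed along the telencephalic lineage from cycling cells to adult astrocytes, ordered 5879 cells in bins. It too was built from the same counts and is described without a test. *Dnmt1* was at a mean of 140 CPM in bin 2 and 179 in bin 3, was still at 159 in bin 5, fell to 27.2 in bin 8, rose again to 81.2 in bin 11, and ended at 16.9 CPM in bin 14, the last bin of P3 cells. In the 3m bins 16 to 19 it was between 4.47 and 16.4 CPM. *Uhrf1* had its highest mean in bin 3 as well (110 CPM) and a second peak in bin 11 (68.4 CPM). It then fell to 5.27 CPM in bin 14 and to at most 0.494 CPM at 3m. Both peaks of the means coincided with those of the S phase list (2719 CPM in bin 3 and 1385 in bin 11). The mitosis list peaked in bin 7 (6323 CPM), where *Dnmt1* was at 58.0 CPM. The means rest on unlike sets of libraries, since bin 2 held P3 library 2 only and bins 4 and 8 lacked library 1. Within library 2, levels fell from bin 2 to bin 3. *Uhrf1* went from 95.1 to 61.5 CPM, *Dnmt1* from 140.0 to 131.7 and the S phase list from 2242 to 2084. Libraries differed widely in the small bins, with *Dnmt1* from 131.7 to 214.1 CPM in bin 3 and from 93.2 to 242.6 CPM in bin 5.

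*Tet2* followed another course. It stayed between 7.53 and 22.2 CPM from bin 2 to bin 11, was at 19.7, 22.5 and 27.7 CPM in bins 12, 13 and 14, and at 47.1 to 65.6 CPM in the 3m bins. *Tet1* rose late among P3 cells, from 18.9 CPM in bin 11 to 36.3 CPM in bin 14, and was at 23.0 CPM in bin 17. *Dnmt3a* showed no single course, with means of 25.7 to 50.2 CPM from bin 2 to bin 11, 56.3 to 59.4 CPM in bins 12 to 14 and 34.7 to 55.0 CPM at 3m. *Tet3* stayed between 22.9 and 34.9 CPM from bin 3 to bin 14. The age step in this order coincided with the change of library, so pseudotime and age cannot be told apart beyond bin 14.

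**Figure D4:**
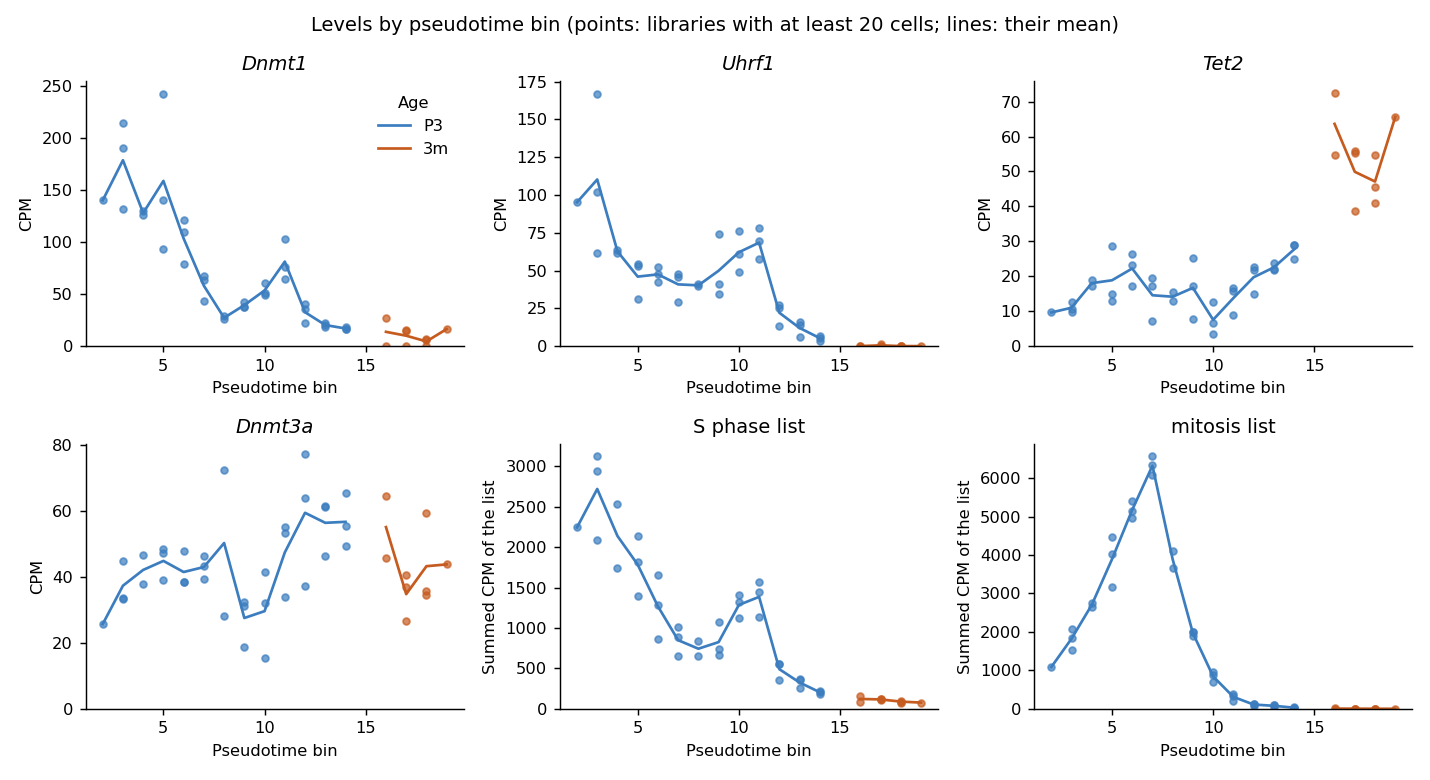
CPM (vertical axes, from 0) of *Dnmt1*, *Uhrf1*, *Tet2* and *Dnmt3a* and summed CPM of the S phase and mitosis lists in each bin of the study's pseudotime score (horizontal axis, no unit), with points for libraries of at least 20 cells and lines for their mean (P3 blue, 3m orange). The means of *Dnmt1* and *Uhrf1* have peaks in bins 3 and 11 and are low at 3m, and *Tet2* is highest in the 3m bins. Bin 2 shows P3 library 2 only, in which both genes are higher than in bin 3.

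Microglia were compared between the ages as a cell type outside the astroglia, with 34, 44 and 46 cells at P3 and 20, 23 and 17 at 3m. *Dnmt1* was the only one of the 7 genes with enough UMIs for the test. It measured 57.0, 57.7 and 62.1 CPM at P3 and 0, 19.9 and 56.2 CPM at 3m, on 53 and 5 UMIs. The groups did not overlap, 3m library 3 lay just below P3, and the log2(fold change) of -1.42 (SE 0.67, edgeR `padj` = 0.178) was not called, with 10.1% of 2679 genes called. *Uhrf1* had 15 UMIs at P3 and 0 at 3m. With a floor of 3 UMIs for the 3m group, the ratio of P3 to 3m was 1.42. The lower end of its counting interval was 1.02, barely above equal levels. *Tet2* measured 46.3, 21.3 and 20.7 CPM at P3 and 69.1, 49.6 and 56.2 CPM at 3m, on 26 and 15 UMIs, without overlap.

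Whether the age effect differed between microglia and astroglia was tested directly. None of 6 genes was called (7.01% of 9285 genes were), with an edgeR `padj` of 0.505 to 0.947. None had an unadjusted p at or under the usual level of 0.05 by edgeR, where the lowest was 0.177. By DESeq2 the lowest was 0.0501, just above that level. With so few microglial UMIs a difference was not detectable at this depth.

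Over all annotated cells, *Uhrf1*, *Dnmt1* and *Dnmt3b* were lower at 3m, 3 of 7 genes, against 34.2% of 15134 called in either direction and 16.4% lower. The cell types differ between the ages here, with 1118 astroglial cells among 3185 cells at 3m and 8874 among 11188 at P3. *Uhrf1* measured 27.5, 19.9 and 22.6 CPM at P3 and 0.151, 0.958 and 0.212 CPM at 3m (log2(fold change) -5.45, SE 0.40, edgeR `padj` = 9.10e-06). *Dnmt1* measured 53.2, 41.0 and 45.8 CPM at P3 and 19.4, 18.04 and 18.9 CPM at 3m (-1.10, SE 0.13, `padj` = 1.55e-04), while 3m oligodendrocytes had a mean of 20.6 CPM. With the stricter cell filter *Dnmt1* was at -0.997 and was not called. *Dnmt3b* measured 3.31, 1.22 and 2.30 CPM at P3 and 0.605, 0.319 and 0.424 CPM at 3m (-2.08, SE 0.53, `padj` = 0.00965), in which END_7 held most of the P3 UMIs. Without P3 library 1 or 3, or with sums thinned to the smallest, *Dnmt3b* did not pass the filter on low counts, so its call rests on those libraries. *Tet2* was at 0.71 (SE 0.16, `padj` = 0.00571), and *Dnmt3a*, *Tet1* and *Tet3* lay between 0.02 and 0.14.

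The rest of the pathway was described with 44 genes in 6 lists, of which 42 were tested in astroglia, with 5 higher at 3m, 12 lower and 25 not called. Over all genes 32.1% were called in these sums, 15.8% higher and 16.3% lower. The median log2(fold change) of the 42 was -0.16, against -0.04 over all genes. Among the 8 partners of maintenance methylation 6 were lower (median -2.86). *Pclaf*, a PCNA-binding factor that helps recruit DNMT1 at replication, had 13968 UMIs at P3 and 2 at 3m, a ratio of 403 (counting interval 112 to 3328). *Hells*, a remodeller needed for DNA methylation, had 3111 and 2 UMIs, a ratio of 89.8 (24.8 to 742). *Lig1*, the replicative DNA ligase bound by UHRF1, fell from 57.8 ± 3.91 to 4.24 ± 0.147 CPM (SD, n = 3; log2(fold change) -3.57, SE 0.23, edgeR `padj` = 7.10e-08). *Uhrf2*, the paralogue of *Uhrf1*, was at -0.33 (SE 0.23, `padj` = 0.248) and was not called. In the same sums all 12 S phase and all 8 mitosis genes were lower at 3m, with *Pcna* counted both as an S phase gene and as a maintenance partner. In non-cycling cells 3 of 7 tested maintenance partners were lower (*Hells*, *Pclaf* and *Lig1*), against 12.1% of 12744 genes.

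Partners of removal were lower or not called. Of 8 excision and demethylation genes 4 were lower, against 16.3% of all genes, namely *Tdg*, the glycosylase that cuts out oxidised methylcytosine (-2.12), the endonuclease *Apex1* (-1.75), and *Gadd45a* (-1.16) and *Gadd45b* (-1.86). *Ogt*, the O-GlcNAc transferase that binds TET proteins, was the 1 called gene of its list of 4 and rose with *Tet2*, from 32.5 to 152 CPM (log2(fold change) 2.40, SE 0.32, `padj` = 4.03e-05). *Inca1*, on the same list, has no CXXC domain and was not called.

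A list of 10 genes held methyl-CpG readers and their relatives by name, and being on it does not show that a protein binds methylated CpG. Of these genes, 3 were higher at 3m, *Mbd5* (1.31, SE 0.25, `padj` = 7.27e-04; 9.16 to 20.2 CPM), *Zbtb4* (1.03) and *Zbtb38* (1.02). *Mbd3* (-1.26), a subunit of the NuRD complex, was lower, so 4 of 10 were called against 32.1% of all genes. In non-cycling cells *Mbd5* and *Mbd3* were called, and *Zbtb4* (0.78) and *Zbtb38* (0.92) were not. Among 11 genes of methyl donor and 2-oxoglutarate supply, *Ahcyl1* was higher (143 to 375 CPM; log2(fold change) 1.59, SE 0.18, `padj` = 1.03e-05), which is better known as a partner of IP3 receptors than for the methyl cycle. *Ahcy*, the hydrolase of S-adenosylhomocysteine, was lower (-2.07), on 4 UMIs at 3m, but was not called in non-cycling cells (-1.19, `padj` = 0.187). Of 3 methyltransferase-like genes *Trdmt1* was tested and not called.

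**Figure D5:**
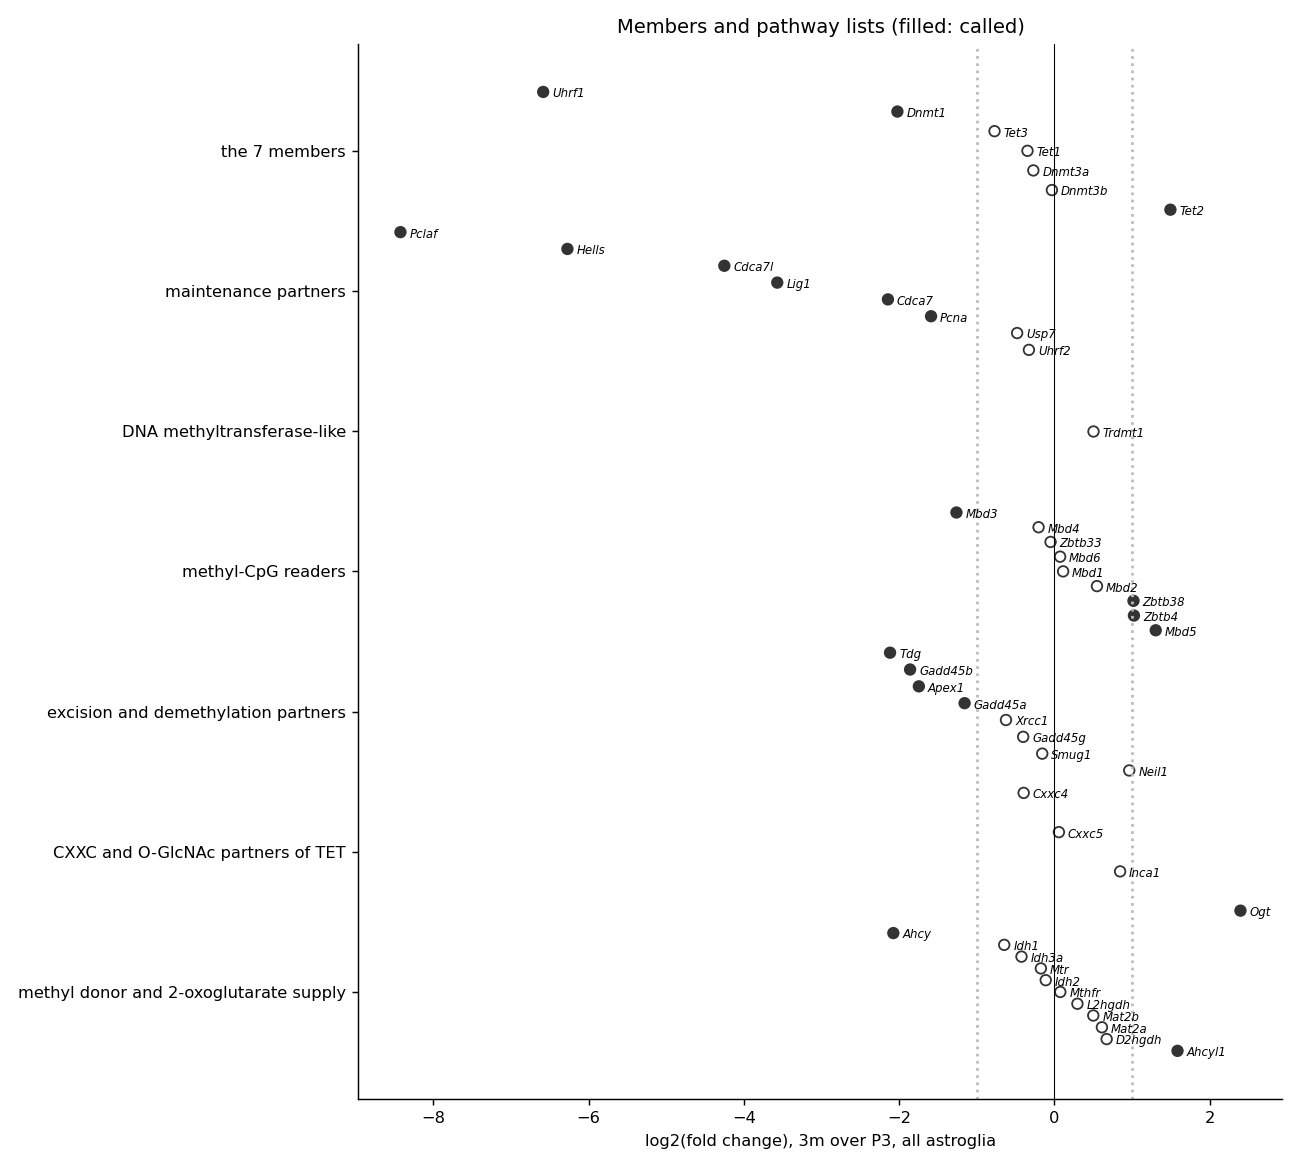
Log2(fold change), 3m over P3, in all astroglia (horizontal axis, 0 for no change, dotted lines at the limit of 1) of the 7 genes and of the tested genes of each pathway list (rows; 1 reader is not plotted), 1 point per gene, filled where called. All 8 maintenance partners lie below 0 (6 called lower), and the reader list and the CXXC list lie on both sides.

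Genes whose levels ran most closely with each member were named by Pearson's r of log2(CPM + 1) over 61 sums of cluster and library, among 12114 genes, as a description. The sums share libraries and differ in depth. For *Uhrf1* these were *Top2a* (r = 0.938), *Pbk* (0.931) and *Rrm2* (0.928), all genes of dividing cells. For *Dnmt1* they were *Mrpl18* (0.864), *Rpa2* (0.857) and *Rbmx2* (0.849), and the r of *Dnmt1* with *Uhrf1* was 0.647. *Dnmt3a* ran with *Galnt2* (0.900), *Yipf5* (0.881) and *Rab5a* (0.867), and *Tet1* with *Cyp51* (0.876), *Rab23* (0.860) and *Tbc1d12* (0.857). *Tet2* ran with *P4ha1* (0.824), *Vps26a* (0.804) and *Slc35f6* (0.802), and *Tet3* with *Usp5* (0.852), *Phf12* (0.844) and *Mri1* (0.836). *Dnmt3b* was too low to be ranked. *Uhrf1* and *Tet2*, which moved in opposite directions with age in astroglia, had an r of 0.04 over these sums.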

How the data were processed

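Single-cell RNA-seq of 3 P3 and 3 3m libraries was used, grouped by the age and replicate number in the labels. The deposited table holds UMI counts per gene and barcode, which the authors made by mapping reads to mm10 and counting with Cell Ranger, before any filter on cells. A second deposited table gives each kept cell its cluster name, astroglial sub-cluster and pseudotime score, made by the authors with Seurat (3.1.1 per the labels) and Slingshot. The study's filter (over 500 genes, under 10% mitochondrial UMIs) was applied to 16690 barcodes and kept 14373, all annotated. Doublets were not called anew, and 3′ UMI counts were not compared between genes.

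UMIs were summed per library, since cells are not replicates, and sums were compared with edgeR 4.0.16 (R 4.3.3; TMM scaling, filterByExpr, quasi-likelihood test, two-sided, Benjamini-Hochberg over all genes tested). Levels are CPM of unscaled sums, by cluster, sub-cluster and bin with at least 20 cells. The sums compared by a test had no such limit, and that of microglia in 3m library 3 held 17 cells. Each library pooled several animals, and p-values measure the spread between these preparations. Where a group held 1 to 3 UMIs a pooled ratio with its exact 95% counting interval is given. Against 0 UMIs the ratio uses a floor of 3 UMIs and is given with the lower end of that interval. Intervals cover counting error only. The fits were tested on simulated data. DESeq2 1.42.0 and other scalings, filters, cell sets and left-out libraries were alternatives. Replicate numbers did not pair the libraries (correlations of same-numbered deviations of 0.21, 0.10 and 0.04).

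The 7 genes and the lists were chosen with earlier results of these data known. From the lists, the 3 called genes with the largest change each way and at least 20 CPM in the higher age are given in full, and other list genes named here were chosen after their values were seen. One gene of the reader list is counted but not reported here. Deposited cell annotation was used as given, and no other table was used.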

Additional observations from a re-analysis of the deposited data

How the results depend on the processing

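In all, 415 results of single genes were recomputed under alternatives, of which 388 kept direction and side of the threshold. The count of called members in non-cycling astroglia was 2, and became 4 without scaling beyond library totals and 1 with the stricter cell filter. It was 1 without cells holding more than 1 UMI of the S phase list, and 1 to 3 with a library left out. Without scaling *Dnmt1* (-1.08) and *Tet3* (-1.02) were called as well, and *Uhrf1* was not called under either setting with a count of 1. Sums with at least 50 cells numbered 39 of 61 by cluster and 22 of 44 by pseudotime bin.

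The sign turned for genes that were not called. *Dnmt3b* in astroglia was at 0.30 in telencephalic sub-clusters, 0.39 without cells holding oligodendrocyte transcripts, 0.0325 without the shallow sub-clusters 4 and 12 (chosen after seeing the data), and -0.64 to 0.66 with a library left out. In all annotated cells *Dnmt3a* was at -0.0670 without scaling (-0.0653 to 0.24 with a library left out). *Tet1* was at -0.17 without scaling, -0.0390 without a filter on low counts and -0.11 with the stricter cell filter (-0.11 to 0.18). *Tet3* was at -0.0105 with RLE scaling, -0.20 without scaling, -0.0703 without the filter and -0.0105 by DESeq2 (-0.17 to 0.15). For the difference between microglia and astroglia, leaving out a library gave -0.53 to 0.68 for *Dnmt1* and -0.68 to 1.21 for *Tet3*. The cause of these shifts was not tested.

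The replicate numbers as a block, although they did not pair the libraries, left the counts of called members at 3 in astroglia, 2 in non-cycling astroglia, 0 in microglia and 3 in all cells, and leaving the library block out of the other comparisons left them at 2 and 0. Without scaling, the share of higher among all called genes was 38.6% instead of 49.3% in astroglia, 39.9% instead of 54.2% in non-cycling astroglia, 52.0% instead of 66.1% in microglia, 58.2% instead of 26.6% for the difference of the cell types and 41.6% instead of 52.0% in all cells, and the median of all genes in astroglia moved from -0.04 to -0.24. DESeq2 called 957 genes between cycling and non-cycling cells against 1474 by edgeR, and 396 against 651 for the difference of the cell types. In microglia 271 genes were called, 513 without the filter and 125 to 255 with a library left out. No member passed the filter for microglia when sums were thinned or a P3 library was left out, or for the difference of the cell types when thinned. Depth limits *Dnmt3b* and *Uhrf1* at 3m most.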
